A study of Mus musculus with 2 samples.

Results

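The 5 genes described here, Sall4, Utf1, Neurog3, Bcl6b and Zfp42, encode nuclear factors. They were grouped as regulators of spermatogonia, the germ line's stem and progenitor cells at the base of the seminiferous tubule, a role not tested here. They were taken by name, as every non-control probe that the array files call by one of these symbols, and this gave 6 probes of 15208, with 2 for Sall4 and 1 for each of the other 4 genes. All 5 were among the 9441 genes compared. Total RNA came from Sertoli cells, the somatic nurse cells of the tubule, isolated without culture from testes of male Swiss mice aged 3 months. The control mice had no treatment, and the treated mice had received busulphan at 25 mg/kg 1 month before. Busulphan alkylates DNA and is known to empty tubules of germ cells. Each preparation was labelled with Cy3 and read on 1 array, and how many mice each one pools is not given in the labels. With 1 array a group no difference has a replicate check, preparation and treatment cannot be told apart, and no test was possible.

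Spermatogonia that renew themselves respond to GDNF, a growth factor secreted by Sertoli cells, through the receptor pair GFRA1 and RET. BCL6B is a transcriptional repressor of the BTB zinc finger family whose gene is switched on by GDNF in cultured spermatogonial stem cells. SALL4 is a zinc finger factor of undifferentiated and differentiating spermatogonia that recruits the NuRD histone deacetylase complex. UTF1 is a chromatin-bound factor of pluripotent cells and of early spermatogonia. NEUROG3 is a basic helix-loop-helix factor that marks undifferentiated spermatogonia on the way to differentiation. ZFP42, also called REX1, is a zinc finger factor of the YY1 family, best known as a marker of pluripotent stem cells and also present in the testis.

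What each spot measured is the stretch of transcript that its probe pairs with, so the probes are shown here. The files give their places on mouse build mm9 and do not say which exon or untranslated region holds them. The probes are read 5′ to 3′, with each TAA, TAG or TGA triplet, the letters of a stop codon in any frame, in capitals. The first 3 are printed whole (60 bases), the others by their first 30 bases.
Sall4, upstream probe: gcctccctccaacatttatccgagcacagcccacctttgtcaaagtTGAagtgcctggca
Utf1: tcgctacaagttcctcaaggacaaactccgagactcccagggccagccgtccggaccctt
Neurog3: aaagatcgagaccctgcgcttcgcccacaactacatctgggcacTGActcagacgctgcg
Sall4, downstream probe: tgcgaccacccaagtattgccaggtctTAA
Bcl6b: aacggTAAaacgactTAAatttaTAGgaca
Zfp42: tgtgctatTGAaggggatggggacttttgc

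The Utf1 probe holds no such triplet, and its 3 reading frames are all open across the 60 bases. The Neurog3 probe and both Sall4 probes leave 2 frames open, and the Bcl6b and Zfp42 probes 1 each. The share of G and C was 60.0% for Utf1, 58.3% for Neurog3, 53.3% for the upstream and 45.0% for the downstream Sall4 probe, 43.3% for Bcl6b and 38.3% for Zfp42. The upstream Sall4 probe lies at chr2:168578172-168578231 on the minus strand and the downstream one at chr2:168574333-168574392, with 3779 genomic bases between them. Utf1 is probed at chr7:147130120-147130179 and Neurog3 at chr10:61596570-61596629, both on the plus strand. Bcl6b is probed at chr11:70037864-70037923 and Zfp42 at chr8:44380667-44380726, both on the minus strand.

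All 6 probes were well above background on both arrays by the scanner software's criterion, and none was saturated or marked as an outlier. That criterion was met by 80.9% of all non-control probes in control and by 79.3% after busulphan. The RNA of cell type markers differed widely between the 2 preparations. Spermatid markers were 2-fold or more lower after busulphan in 15 of 15 compared, with a summed signal of 723697 in control and 45975 after the drug. Spermatocyte markers were lower in 16 of 19, with sums of 324701 and 45594. Sertoli cell markers were higher in 17 of 20, with sums of 21137 and 155283. Saturated spots were those of several spermatid markers and of the spermatocyte markers Pgk2 and Ldhc in control. After busulphan the spot of the Sertoli cell marker Clu was saturated. The sums that hold such spots are lower limits. Macrophage markers were higher in 8 and lower in 2 of 13, with sums of 66046 and 9077. These sums turn to 3330 and 7847 without Aif1, which is named after its value was seen. The control spot of Aif1 was saturated, and a second, unsaturated Aif1 probe was also lower, at 21419 in control and 315 after busulphan. Every Sertoli cell, spermatocyte and spermatid marker that was compared was well above background on both arrays, whereas the macrophage gene Itgam was not so in control. Spermatogonial markers listed as restricted to germ cells could be compared for 6 of 13, of which 2 were higher and 2 lower. Their sums were 849 and 803, of which Kit alone gave 399 and 253. That restriction was not tested. Markers of all germ cells were lower in 2 of 4, Leydig cell markers higher in 2 and lower in 1 of 8, endothelial markers higher in 3 and lower in 3 of 12, and peritubular myoid markers higher in 3 of 7. The part of this in the ratios given here was not tested. In bulk RNA, fewer cells of a type and less RNA per cell cannot be told apart.

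Of the 5 genes, each taken by its brightest probe, Sall4 was higher by at least 2-fold after busulphan, Zfp42 was lower by at least 2-fold, and Utf1, Neurog3 and Bcl6b were lower by less. Of all genes, 31.3% passed 2-fold upward and 29.5% downward, so 1 of 5 in each direction lies near the background. The Sall4 call rests on which probe is taken: the downstream probe is the brighter by the mean over both arrays only through its busulphan value, and in control the upstream probe, with a log2 ratio of -0.51, was the brighter. The ratios are log2 of busulphan over control, after each array's processed signal was divided by its 75th percentile. The median ratio was -0.79 for the 5 genes and 0.07 for all genes. The software error is that of a single spot's signal and carries no difference between animals.

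**Figure D1:**
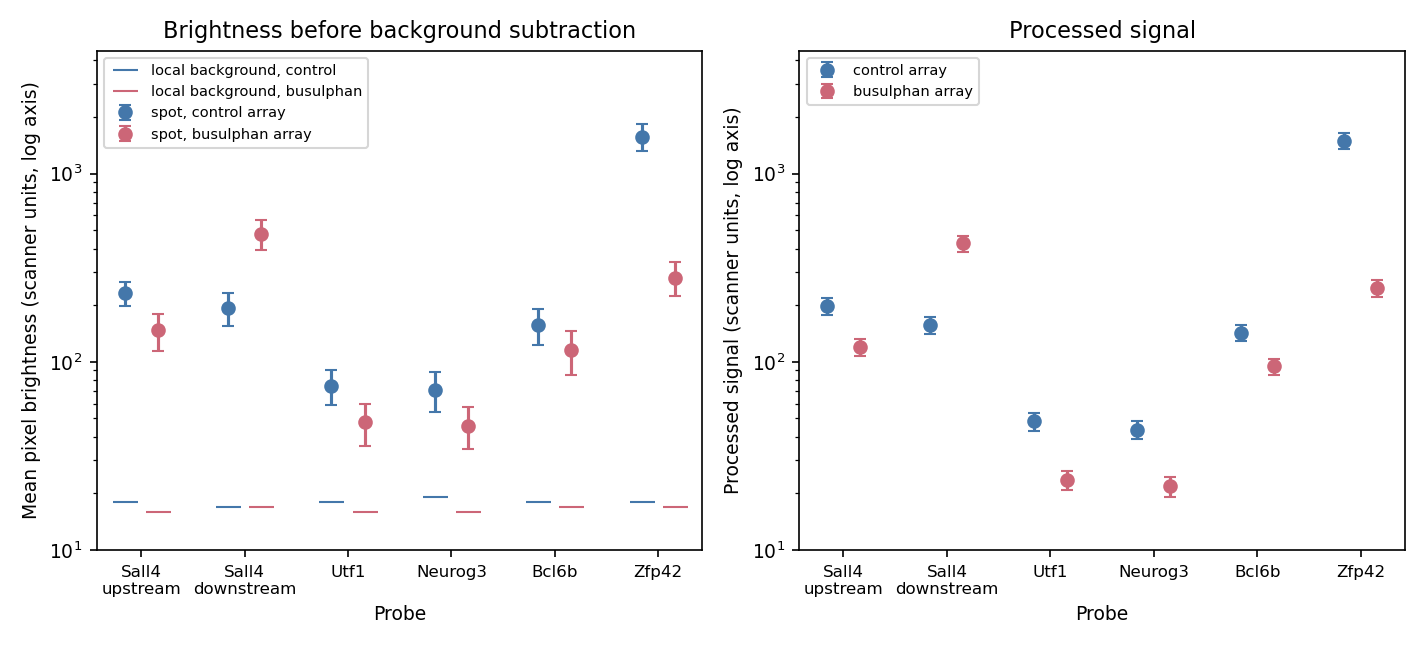
Brightness of each of the 6 probes on the control (blue) and busulphan (red) arrays, on log axes in scanner units. The left panel shows the mean over the spot's pixels before background subtraction, with bars of 1 SD over pixels and short lines for the local background, which lay between 16 and 19; the right panel shows the processed signal with bars of the software error. Only the downstream Sall4 probe was brighter on the busulphan array.

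Zfp42 had the widest difference of the 5. Its processed signal was 1500 ± 150 (software error) in control and 246 ± 24.6 after busulphan. After scaling it was 5.28-fold lower, with a log2 ratio of -2.40 and a software error of 0.20. Of all genes compared, 14.2% had a lower ratio. The spot stood clear of its surroundings on both arrays, at 87.5 times its local background before subtraction in control and 16.5 times after busulphan. This gene stayed more than 4-fold lower under every scaling and background correction tried, with log2 ratios from -3.28 to -2.16.

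Sall4 gave opposite answers by its 2 probes. The downstream probe, the brighter by its mean over both arrays, had signals of 157 ± 15.7 in control and 426 ± 42.6 after busulphan, a 3.14-fold higher value (log2 ratio 1.65, software error 0.20). The upstream probe had signals of 198 ± 19.9 and 120 ± 12.1, a log2 ratio of -0.51 with an error of 0.20. The upstream probe was thus brighter in control and the downstream probe brighter after busulphan, with no overlap of the software errors in either case. The downstream ratio exceeded the upstream one by 2.16 on the log2 scale, 7.47 times the combined software error of 0.29. The difference was between 1.72, with normexp background correction, and 2.17 over the scalings and corrections, and the signs stayed opposite in each.

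Other genes set the scale of this disagreement. Of 1821 genes with exactly 2 unsaturated probes well above background on both arrays, 17.1% had probes at least as far apart as those of Sall4, and the median gap was 0.55. Of 2321 genes with 2 or more such probes, 26.8% had ratios of both signs. The 3 RefSeq transcripts of Sall4 in the files are all listed for both probes. Whether the probes read the same transcripts in these cells was not tested. With the median over both probes Sall4 had a log2 ratio of 0.57, within 2-fold, and with spike-in scaling 0.77.

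Utf1 was dim in both libraries. Its signal was 48.2 ± 5.09 in control and 23.6 ± 2.74 after busulphan, with raw brightness 4.14 and 2.99 times the local background. The control value was the higher, and the errors did not overlap. Its log2 ratio was -0.82 (software error 0.23), which is 1.77-fold lower. Median scaling left it just short of 2-fold, spike-in scaling put it at -1.70 and normexp at -0.18.

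Neurog3 was dim as well. Its signals were 43.6 ± 4.65 in control and 21.8 ± 2.61 after busulphan, at 3.73 and 2.85 times the local background. The log2 ratio was -0.79 (software error 0.23), 1.73-fold lower, and it ran from -1.67 with spike-in scaling to -0.15 with normexp. The spread of pixels within these spots was 24.2% of the mean in control and 25.1% after busulphan. The normexp setting, which changes the background correction and adds an offset of 50, moved the ratios of both genes towards 0, and the parts of these steps were not separated.

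Bcl6b was the nearest to no difference among the brightest probes. Its signals were 143 ± 14.4 in control and 94.5 ± 9.56 after busulphan, with a log2 ratio of -0.39 and a software error of 0.21, or 1.88 times the error. The control signal was the higher, without overlap of the errors. It reached -1.27, past 2-fold, when scaled to spike-in controls.

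Spike-in scaling changed how many of the 5 genes passed 2-fold, while the other scalings and normexp left 1 higher and 1 lower. Spike-in control RNA was brighter on the busulphan array, by 0.33 to 1.00 on the log2 scale over 6 probes with 20 spots each, and dividing by it moved the median of all genes to -0.81. On that scale 4 of the 5 genes, all but Sall4, were at least 2-fold lower and none was higher, where 46.4% of all genes were lower and 16.2% higher. With the 75th percentile and a limit of 1.5-fold, 3 of the 5 were lower and 1 higher (37.0% and 39.5% of all genes), and at 4-fold 1 was lower and none higher (17.7% and 14.4%). Zfp42, Utf1, Neurog3, Bcl6b and the upstream Sall4 probe stayed below 0 and the downstream Sall4 probe above 0 under all 7 scalings and corrections.

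**Figure D2:**
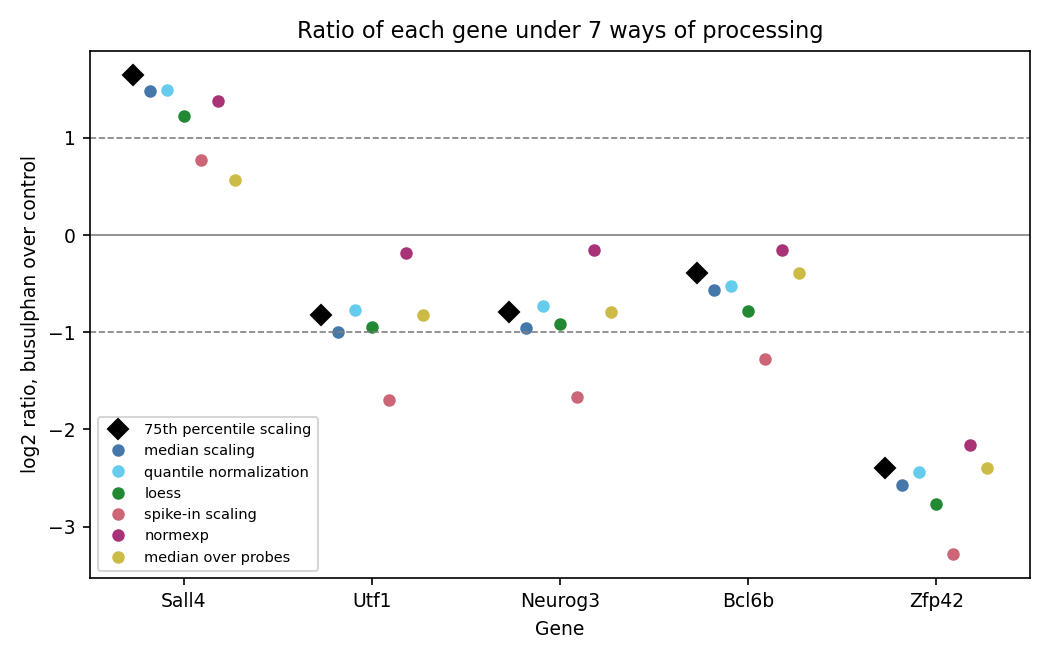
log2 ratio (busulphan over control) of the 5 genes with 75th percentile scaling (black diamonds) and 6 other ways of processing (coloured points), each from 1 array per group. Dashed lines mark 2-fold either way: Zfp42 lies below the lower line throughout, from -3.28 to -2.16, and Sall4 above 0 throughout, from 0.57 to 1.65, while Utf1, Neurog3 and Bcl6b lie on both sides of the lower line.

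Promoter windows from RefSeq on build GRCm38.p6, 250 bases before to 50 after each gene's start, were matched for Utf1, Neurog3 and Zfp42. They were searched on both strands for the octamer ATGCAAAT, the motif of POU factors such as POU5F1. The Zfp42 window held 1 match and those of Utf1 and Neurog3 none, while Sall4 and Bcl6b had no window to search. Of 32851 windows of this length, 1.74% held the octamer. The match is shown in capitals, as its reverse complement, within 60 bases at chr8:43307162-43307221 on the minus strand, and begins 186 bases before the gene's start.
Zfp42, promoter: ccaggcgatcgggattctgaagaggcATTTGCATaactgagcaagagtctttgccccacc

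A letter match is not evidence of binding, and a link between the octamer and the Zfp42 ratio was not tested. Pou5f1 itself, the pluripotency and germ line factor, had signals of 97.4 in control and 17.0 after busulphan, a 4.97-fold lower value (log2 ratio -2.31), which shrank to -0.84 with normexp.

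The ligand and receptor side of the GDNF pathway did not share one direction. Gdnf had signals of 36.6 and 206, 6.50-fold higher after busulphan (log2 ratio 2.70, or 1.72 with normexp). Gfra1, its binding receptor, had 144 and 20.9, 5.96-fold lower by its brighter probe, while its other probe gave -0.35. The log2 ratio of the brighter probe was -2.57, or -1.17 with normexp. Ret, the signalling receptor, was not well above background on either array, at 2.35 and 6.32. Kitl, the Sertoli cell ligand of differentiating spermatogonia, was 13.9-fold higher at signals of 115 and 1384, and its receptor Kit had 399 and 253, a log2 ratio of -0.45. Both ligands were thus at least 2-fold higher after busulphan. Of the receptors, Gfra1 was at least 2-fold lower by its brighter probe only, and Kit was lower by less than 2-fold.

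Across 31 GDNF and FGF signalling genes compared, of 32 listed, 18 passed 2-fold upward and 4 downward, and the median log2 ratio was 1.12, beside 31.3% and 29.5% of all genes. With spike-in scaling 9 were higher and 8 lower, at a median of 0.23, beside 16.2% and 46.4% of all genes. The highest were the kinase Fyn (13.7-fold) and the PI3 kinase regulatory subunit Pik3r1 (9.74-fold), and the lowest after Gfra1 was the MAP kinase kinase Map2k2 (4.20-fold). Genes known to respond to GDNF in cultured germ line stem cells, the group to which Bcl6b belongs, had 8 of 11 higher and 2 lower, with a median of 1.33. With spike-in scaling 4 were higher and 2 lower, at a median of 0.44. The chemokine receptor Cxcr4 was 30.4-fold higher, at signals of 19.9 and 525, and Egr2, an immediate early factor, 8.05-fold. Etv5, which acts with BCL6B downstream of GDNF and is also made by Sertoli cells, was 7.05-fold higher (34.3 and 209). Lhx1, a homeobox gene of the same response, was 5.16-fold lower (265 and 44.5), and Egr3 was 4.15-fold lower at 36.8 and 7.68, within 2-fold with normexp (-0.40). Bcl6b, at -0.39, lay between these. With normexp the log2 ratio of Cxcr4 went from 4.93 to 3.14, of Etv5 from 2.82 to 1.75 and of Lhx1 from -2.37 to -1.48. That of Egr2 was 3.01 and became 3.04.

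Of 26 genes listed for undifferentiated spermatogonia, 22 had a probe and 17 could be compared. Of these, 6 passed 2-fold upward and 5 downward, beside 31.3% and 29.5% of all genes. The list's median was 0.36. With spike-in scaling 2 were higher and 8 lower, at a median of -0.52, beside 16.2% and 46.4% of all genes. Bmi1, a Polycomb gene that many cell types use, was lowest at 29.0-fold (9808 and 293), followed by Gfra1. Etv5 and Taf4b, a TFIID subunit of germ cells (4.81-fold), were highest. Nanos2, the RNA-binding regulator of stem cell renewal, was not well above background on either array, at 5.48 and 6.35. Of 13 compared genes listed for differentiating spermatogonia, which may mark other stages too, 4 passed 2-fold upward and 1 downward. Of all genes, 31.3% and 29.5% did so. The list's median was 0.71. With spike-in scaling none was higher and 3 were lower, at a median of -0.12, beside 16.2% and 46.4% of all genes. The higher ones included Uchl1 (3.56-fold), a deubiquitinase, and Dmrt1 (3.55-fold), a sex determination factor that Sertoli cells express as well, both at a log2 ratio of 0.95 with spike-in scaling. The lower one was Elmo1 (4.60-fold), known for engulfment and cell movement. Surface proteins used to mark spermatogonia, most of which somatic cells also carry, were higher in 8 of 10 and lower in none, with a median of 1.61. Of all genes, 31.3% were higher and 29.5% lower. With spike-in scaling 4 of the 10 were higher and 1 lower, at a median of 0.73, beside 16.2% and 46.4% of all genes. The integrin Itga6 was 18.9-fold higher beside Cxcr4, while Thy1 had a log2 ratio of 0.32 and Cd24a one of -0.64. Sertoli cell markers were higher in the same library in 17 of 20, and their part in these lists was not tested.

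The pluripotency network, in which Utf1, Zfp42 and Sall4 are usually counted, had genes past 2-fold in both directions. Of 19 genes compared, 8 passed 2-fold upward and 4 downward, beside 31.3% and 29.5% of all genes. The list's median was 0.05, which lay between -0.83 and 0.70 over the alternatives. With spike-in scaling 5 were higher and 8 lower, beside 16.2% and 46.4% of all genes. Stat3, a cytokine-responsive factor (9.43-fold), and Nr0b1, a nuclear receptor that Sertoli cells also express (8.99-fold), were highest. Fbxo15, an F-box gene of embryonic stem cells and testis, was 6.37-fold lower (1890 and 257), next to Pou5f1. Sox2 was not well above background on either array, at 1.70 and 1.47.

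Among paralogs and partners, 14 of 27 passed 2-fold upward and 5 downward, beside 31.3% and 29.5% of all genes. The list's median was 1.02. With spike-in scaling 5 were higher and 9 lower, at a median of 0.14, beside 16.2% and 46.4% of all genes. Sall3 was 4.01-fold lower (130 and 28.0), within 2-fold with normexp (-0.98), and its second probe gave -1.37. Sall1 had a log2 ratio of -0.61 (32.8 and 18.7) and Sall2 one of -0.05 (49.6 and 41.4), which was 0.10 with normexp. The positive value of the downstream Sall4 probe was thus the only one above 0 in the family with the 75th percentile scaling. Bcl6, the paralog of Bcl6b with wide use in immune and other cells, was 5.19-fold higher (949 and 4259), against -0.39 on the log2 scale for Bcl6b. Of the NuRD subunits, Mbd3 was 4.98-fold and Hdac1 4.23-fold lower, Mta1 and Chd4 were lower (log2 ratios of -1.48 and -1.28, with a second Chd4 probe at 0.33), and Hdac2 (1.12) and Rbbp7 (1.33) were higher. The median over both probes put Chd4 at -0.48, and spike-in scaling put Hdac2 at 0.24 and Rbbp7 at 0.45, all within 2-fold. Mta2 (0.39) and Rbbp4 (0.68) lay within 2-fold. Mta1, Chd4, Hdac2, Rbbp7, Mta2 and Rbbp4 were named after their values were seen, to give all NuRD subunits on this list. Other subunits of the complex were not listed. The inhibitors of helix-loop-helix factors Id2 (5.85-fold) and Id3 (6.28-fold) were the highest of this list.

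Over all 7 lists, 120 of 149 genes were compared, and 51.7% were at least 2-fold higher and 15.0% lower, against 31.3% and 29.5% of all genes. The lists were chosen with earlier results of these data known, so these shares are a description. With spike-in scaling 26 of the 120 were higher and 36 lower, where 16.2% of all genes were higher and 46.4% lower.

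**Figure D3:**
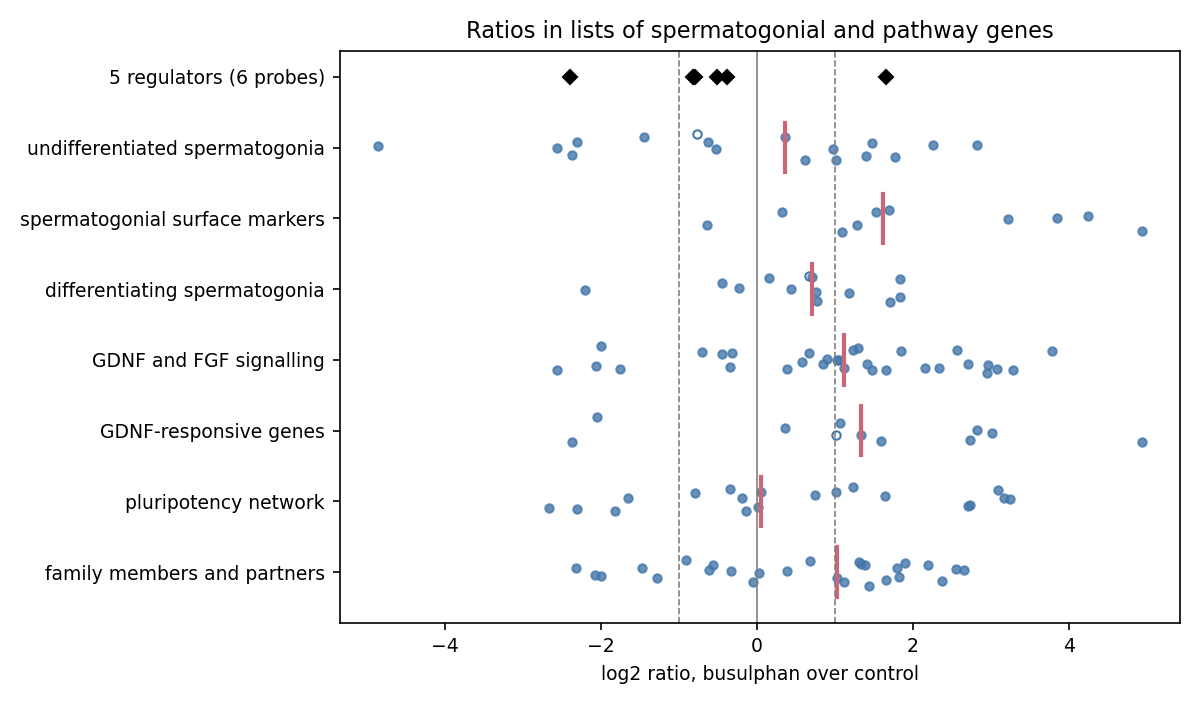
log2 ratios (busulphan over control) of the 6 probes (black diamonds) and of the genes in 7 lists (blue points, open where the value is a bound), with red bars for list medians and dashed lines at 2-fold either way. The medians run from 0.05 for the pluripotency network to 1.61 for the surface markers, and 5 of the 6 probes lie below 0.

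By ratio alone, which is 1 number from 2 arrays, the list genes nearest to each of the 5 were as follows. Pik3ca and Tcf4 lay nearest to the downstream Sall4 probe, at 1.65 each on the log2 scale, while the upstream probe was at -0.51. Klf2 (-0.79) and Neurog2 (-0.91) lay nearest to Utf1, and Klf2 and Hras (-0.71) nearest to Neurog3. Fgfr3 (-0.35) and Klf5 (-0.34) lay nearest to Bcl6b, and Lhx1 (-2.37) and Mbd3 (-2.32) nearest to Zfp42. Klf2 has a second probe at 0.77 and Klf5 one at 1.15. Pik3ca has another at 0.31, and Tcf4 has others at 1.04 and 0.64. Fgfr3 has others at 0.15 and -1.14, and Lhx1 one at -1.81.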

How the data were processed

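The 2 scanner files hold spot intensity values that, per the file headers, the authors extracted with version 11.5.1.1 of Agilent Feature Extraction, which takes off a fitted background, corrects a multiplicative spatial trend and replaces very dim spots by surrogates. Both arrays carry 1 scan time. The deposited log2 table equals log2 of the processed signal less 10.03 for control and 9.82 for busulphan, with medians of -2.94 and -2.77, so scale and direction follow from the values and no gene was centred.

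Values were log2 processed signal minus each array's 75th percentile over 15208 non-control probes (signals of 1046 and 905). Left out were 4 probes marked as outliers. A gene needed a probe well above background on 1 array and took the one with the highest mean. Where only 1 array measured it, or 1 spot was saturated, the ratio is a bound. Genes were named by accession through RefSeq (GRCm38.p6) for 13300 probes and by the files for 1908. A gene was called at 2-fold in either direction; 1 array a group permits no test and limits precision.

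Named were the 5 genes with every probe, the 2 highest and 2 lowest of each list, the 2 list genes nearest in ratio to each, and Sall1, Sall2, Sall3, Bcl6, Gdnf, Gfra1, Ret, Kit and Kitl; further names carry a count or a limit. The genes and lists were chosen with earlier results of these data known. Alternatives were scaling by the median, quantiles, loess or spike-in probes, normexp (offset 50, limma 3.58.1 in R 4.3.3), the deposited table, the median over probes, measured values for bounds, other filters on dim probes and other thresholds.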

Additional observations from a re-analysis of the deposited data

How the results depend on the processing

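No paired analysis was possible because each group has 1 array. Scaling by the median, quantiles or the deposited table, and measured values in place of bounds, moved none of the 5 ratios by more than the software error. With loess Sall4 was at 1.23, Bcl6b at -0.78 and Zfp42 at -2.77. With spike-in scaling Sall4 was at 0.77, Utf1 at -1.70, Neurog3 at -1.67, Bcl6b at -1.27 and Zfp42 at -3.28, so that 0 were called higher and 4 lower. Of the list genes 26 were then higher and 36 lower, against 62 and 18, and of all genes 16.2% and 46.4%. With normexp the 5 genes, in the same order, were at 1.38, -0.18, -0.15, -0.15 and -2.16. The median over probes put Sall4 at 0.57 and left 0 called higher. At 1.5-fold 3 of the 5 were lower; at 4-fold 0 were higher, and 25 list genes were higher and 11 lower. Of the genes whose ratios were recomputed, no called ratio changed sign under these alternatives. Apart from these shifts in scale, the cause was not tested. The dim spots of Utf1 and Neurog3, below 5 times their local background, limit how well their ratios are sized.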

Other observations

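Disagreement between probes was not limited to Sall4. Of 43 list genes with 2 or more measured probes, 13 (30.2%) had ratios of both signs, close to the 26.8% of all such genes. Cadm1, an adhesion molecule of spermatogonia, ranged from -0.95 to 3.22 over 3 probes, and Csf1r, the receptor of the niche factor CSF1, from -0.96 to 3.08. The Csf1r probe at -0.96 was dim, with signals of 17.7 in control and 7.88 after busulphan. The lowest signals that counted as well above background were 7.50 and 6.26. The remaining Csf1r probe gave 1.74. Cadm1 and Csf1r were picked after their values were seen.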
